A study of Homo sapiens with 3 samples.

Results

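Read-through transcripts of neighbouring genes are annotated as genes of their own, named by joining the names of an upstream gene A and a downstream gene B. They were selected on their names and on their counts, as every gene of the deposited table whose name has the form A-B, with both A and B also present as gene names and with 10 or more counts in at least 1 library. Of the 58302 genes in the table, 123 had such a name and 82 of these reached 10 counts. The other 41 did not, and 27 of them had no count in any library. Just below the limit lay SYNJ2BP-COX16, with 8, 5 and 6 counts in control, siRNA 1 and siRNA 2 (the order used throughout), and CKLF-CMTM1, with 6, 4 and 7. Just above it lay PRH1-PRR4, with 11, 6 and 10 counts, and CRYZL2P-SEC16B, with 11, 3 and 3.

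The RNA came from HCT116, a widely used line of human colorectal cancer cells. The series has 3 libraries of total RNA. In 2 of them the cells had received a small interfering RNA (siRNA) against DUOX2, an enzyme that produces hydrogen peroxide, with a different target sequence in each (siRNA 1 and siRNA 2). In the third the cells had received an siRNA labelled NC, taken as the negative control, and no other treatment, time or genotype is given for any library. The cells of each library received a different siRNA, and the labels do not say whether they came from independent experiments. The p-values measure only the spread between the siRNA 1 and siRNA 2 libraries. That spread holds any effect of the different target sequences together with technical differences. The control group is a single library.

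The libraries held 17589502 (control), 19130768 (siRNA 1) and 18832672 (siRNA 2) counts. DUOX2 itself had 2, 2 and 0 counts. An observed 0 is compatible with up to 3 counts, and all of these values lie below that, so no fold is given for the targeted gene. The library protocol in the labels speaks of retinas. Of 8 retinal marker genes, 6 had no count in any library, and the summed level of all 8 lay between 0.581 and 0.880 CPM (counts scaled by library size), against 3365 to 4944 CPM for 6 epithelial markers. Summed markers of fibroblasts (2.31 to 3.53 CPM), leukocytes (1.65 to 3.53 CPM) and endothelium (0.275 to 0.489 CPM) were low in all 3 libraries. The epithelial sum was lowest with siRNA 1, and its members did not go one way: EPCAM had 7646, 12181 and 11926 counts and KRT19 had 16482, 6102 and 8563. The sum of 5 colorectal markers was 197, 118 and 133 CPM, lower with both siRNAs, with CDX1 at 0 throughout. The part of these markers in the results on read-through genes was not tested. In RNA from whole cultures, fewer cells with a transcript and less of it per cell cannot be told apart.

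A read-through transcript arises when RNA polymerase II passes the polyadenylation site at the end of one gene, transcribes the space behind it and goes on through the next gene on the same strand. Splicing then usually joins a late exon of the upstream gene, often the last but one, to an early exon of the downstream gene, which removes the first gene's end and the second gene's start. Some of these RNAs keep a reading frame and encode a fusion of both proteins, and many others carry a premature stop and are targets of nonsense-mediated decay. Much of such an RNA is made of exons that the parent genes also have, and the join between them is what sets it apart.

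The GENCODE 29 annotation (GRCh38) held 81 of the 82 genes, C8orf44-SGK3 being named only. A and B lay on the same chromosome and strand for all 81, with a median gap of 3589 bases. The gap was within 500000 bases for 80 of them, and IQCJ-SCHIP1 had the widest, 573553 bases. The annotated spans of A and B overlapped in 12, and A lay upstream of B in 78, the exceptions being POC1B-GALNT4, PRH1-PRR4 and SUGT1P4-STRA6LP. A protein-coding transcript was annotated for 50 of the 81, and 21 others had a transcript marked for nonsense-mediated decay and no coding one. A direct splice from an exon of A to an exon of B was annotated for 71, in 123 junction sequences, and all 123 were absent from the transcripts of A and of B. IQCJ-SCHIP1, ARMCX5-GPRASP2, TMEM256-PLSCR3 and PDXDC2P-NPIPB14P were among the genes without such a splice.

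The joins show what distinguishes these RNAs, and the first set is shown because RPS10-NUDT3 is the gene the results turn on. Each sequence is 60 bases of the spliced RNA written as DNA, from the GENCODE 29 transcripts, with the exon before the splice in lower case and the exon after it in capitals. In the read-through transcripts, the last RPS10 base is at position 34418369 of chromosome 6 (minus strand) and the first NUDT3 base at 34295685 or 34341972. The transcript RPS10-201 splices from the same base to its own last exon at 34417547, and NUDT3-201 enters the same 2 NUDT3 exons from its own upstream exons.
RPS10-NUDT3-202: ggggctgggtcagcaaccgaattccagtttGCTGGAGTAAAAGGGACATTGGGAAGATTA
RPS10-NUDT3-204: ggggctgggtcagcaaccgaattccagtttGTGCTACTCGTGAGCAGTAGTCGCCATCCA
RPS10-201: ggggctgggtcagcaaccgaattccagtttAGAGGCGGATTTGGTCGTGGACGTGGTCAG
NUDT3-201, into the exon at 34295685: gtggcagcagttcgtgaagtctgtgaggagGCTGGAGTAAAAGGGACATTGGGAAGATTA
NUDT3-201, into the exon at 34341972: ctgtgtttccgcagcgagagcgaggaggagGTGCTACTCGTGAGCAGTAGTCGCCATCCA

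The lower-case part of both read-through joins is that of RPS10-201, and their capitals are those of NUDT3-201. A read that lies wholly to one side of the join fits a parent gene as well. The same holds at the most abundant read-through gene, NME1-NME2, whose join (chromosome 17, plus strand, 51161272 to 51166827) starts from the base that NME1-201 splices to its own next exon at 51161728.
NME1-NME2-203: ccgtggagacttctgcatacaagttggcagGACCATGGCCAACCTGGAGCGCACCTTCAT
NME1-201: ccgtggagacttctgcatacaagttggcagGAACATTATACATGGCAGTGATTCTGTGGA

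The 4 joins that follow belong to genes described further on whose counts differed between libraries. Both sides of each join lie in the coding sequence annotated for the read-through transcript itself. Whether the bases are also coding in A and in B was not checked. The joins lie at 7571479 to 7572284 of chromosome 17 for SENP3-EIF4A1 (plus strand), 42970289 to 42964237 of chromosome 17 for PTGES3L-AARSD1 (minus strand), 36578966 to 36607715 of chromosome 20 for TGIF2-RAB5IF (plus strand) and 50127975 to 50096820 of chromosome 20 for TMEM189-UBE2V1 (minus strand).
SENP3-EIF4A1-201: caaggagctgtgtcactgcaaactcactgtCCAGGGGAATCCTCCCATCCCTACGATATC
PTGES3L-AARSD1-206: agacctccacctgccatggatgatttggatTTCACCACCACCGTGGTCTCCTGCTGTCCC
TGIF2-RAB5IF-201: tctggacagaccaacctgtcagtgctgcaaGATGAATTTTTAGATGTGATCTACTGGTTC
TMEM189-UBE2V1-201: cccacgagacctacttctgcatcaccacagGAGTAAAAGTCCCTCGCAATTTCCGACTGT

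Little annotated sequence told the read-through genes from their neighbours. In 23 of the 81 annotated genes no exonic base lay outside the exons of other genes on the strand, and in 48 fewer than 10% of the exonic bases did. The median share of such private bases was 4.42%. The sources used here do not name the program that assigned reads to genes or say what it did with reads that fit several genes. A gene without a private base can receive reads only through the joins, or through a rule that divides shared reads. Of the 23, 10 nevertheless reached 100 counts in a library, and the 23 summed to 6715, 5005 and 7341 counts. Every count of a read-through gene or of its components given here is therefore uncertain with respect to that division.

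**Figure D1:**
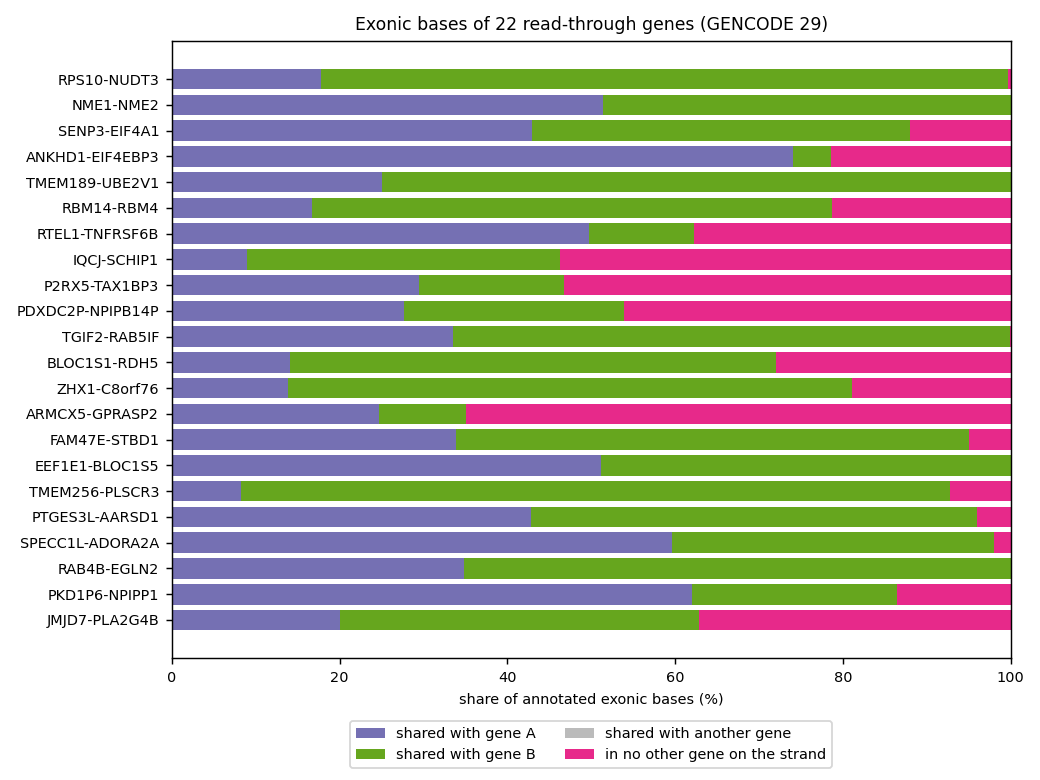
Horizontal bars give the share of annotated exonic bases (%, x axis, GENCODE 29) that each of 22 read-through genes has in common with gene A, with gene B, or with no other gene on its strand. RPS10-NUDT3, NME1-NME2, TMEM189-UBE2V1, TGIF2-RAB5IF, EEF1E1-BLOC1S5 and RAB4B-EGLN2 are covered almost or wholly by their neighbours, and ARMCX5-GPRASP2 has the widest private part of those drawn.

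The 82 read-through genes together took 21686, 14559 and 15174 counts, which is 0.123%, 0.0761% and 0.0806% of the library totals. SENP3-EIF4A1, with 5760, 2172 and 208 counts, made up a large part of that difference. All 82 entered the test. In edgeR's quasi-likelihood test of both siRNA libraries against the control, with Benjamini-Hochberg adjustment over all 17263 genes tested, 1 read-through gene was higher at an adjusted p under 0.05 and 0 were lower. That gene, RPS10-NUDT3, reached 10 counts in siRNA libraries alone, so it was selected through the libraries where it was high. Over all genes tested 10 passed, or 0.0579%, with 3 higher (0.0174%) and 7 lower (0.0405%). At an unadjusted p under 0.05 the read-through genes numbered 26 (31.7%), against 26% of all genes tested. DESeq2 called 3 of them (RPS10-NUDT3, IQCJ-SCHIP1 and PTGES3L-AARSD1), left 59 without an adjusted p, and called 4.32% of the genes for which it gave one.

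**Figure D2:**
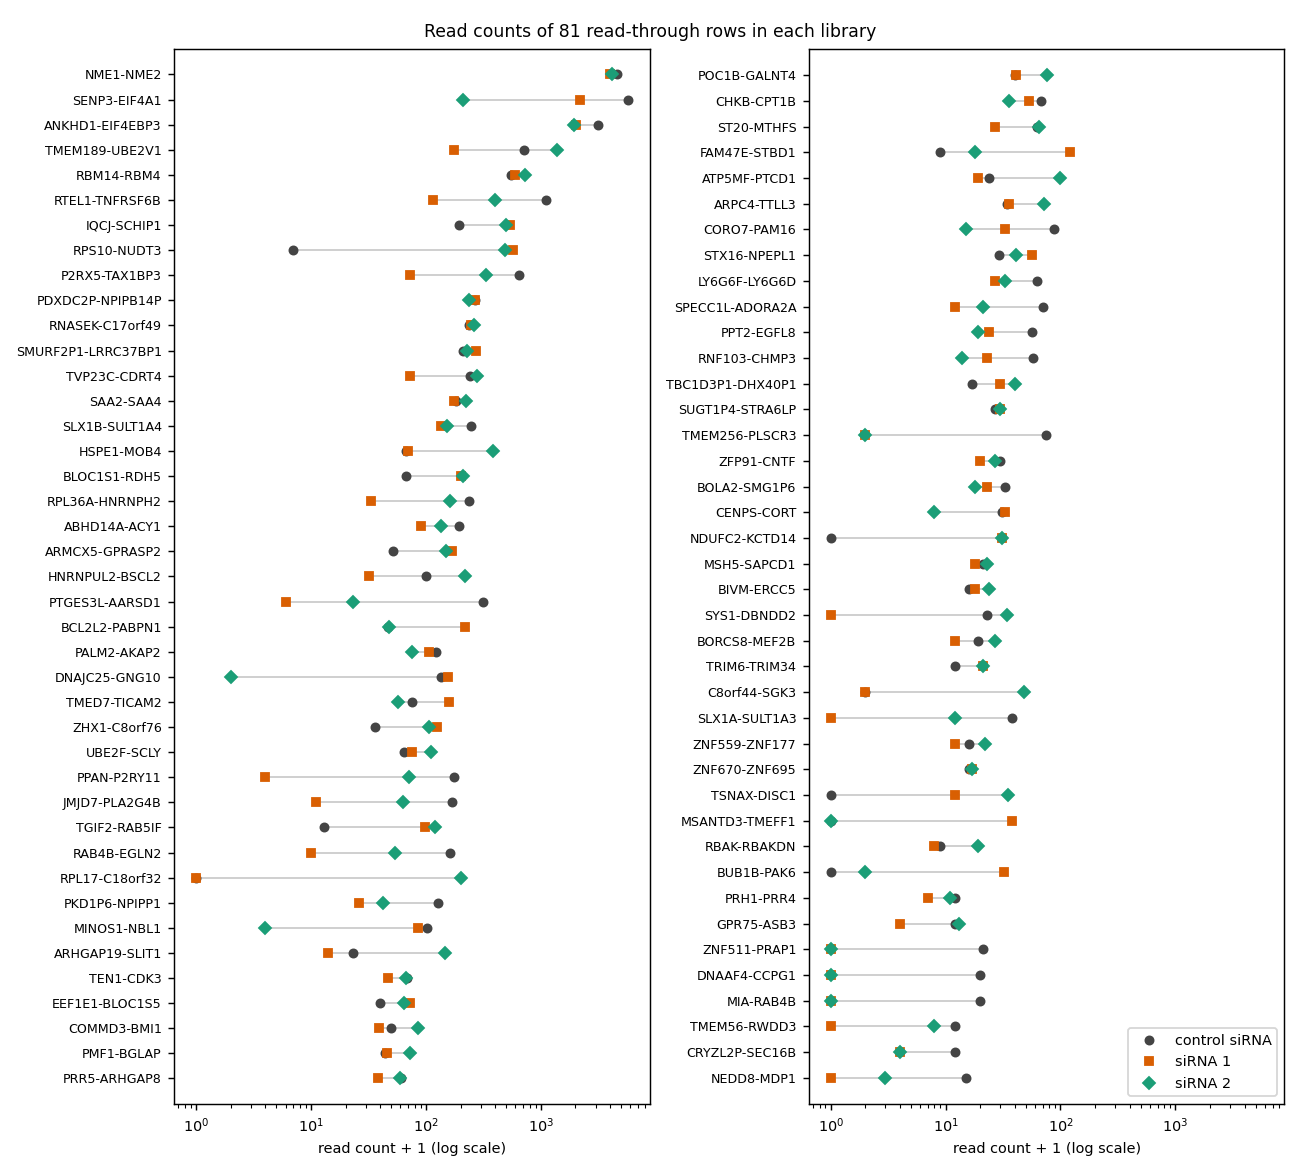
Points give the read count plus 1 (x axis, log scale) of 81 of the 82 read-through genes in the control library (circles), with siRNA 1 (squares) and with siRNA 2 (diamonds), with a line spanning the 3 values, ordered by mean level. At RPS10-NUDT3 the control stands at 6 counts and both siRNA libraries near 500, whereas at RPL17-C18orf32 and DNAJC25-GNG10 the siRNA libraries stand apart from each other.

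RPS10-NUDT3 (ENSG00000270800, chr6:34284887-34426071, minus strand) joins RPS10, which encodes a protein of the small ribosomal subunit, to NUDT3, which encodes a hydrolase of diphosphoinositol polyphosphates. There were 6 counts of it after the control siRNA, 572 after siRNA 1 and 488 after siRNA 2. Both siRNA libraries were high and the control library was low, with no overlap. Scaled to library size, the ratio to the control was 96.6 for siRNA 1 (95% interval for counting error, 44.1 to 264) and 79.2 for siRNA 2 (36.1 to 217). The log2 fold change in edgeR was 6.43 ± 0.41 (SE, 2 siRNA libraries against 1, adjusted p = 0.0174). The gene was singled out with this difference already known, so the p-value is part of its description. Each SE of an edgeR fold change given here is the absolute log2 fold change divided by the square root of the test's F statistic. With 6 counts in the control, the counting intervals above are wider than the SE of 0.41 implies. The call was lost without a filter on low counts (edgeR, adjusted p = 0.340). It was also lost with the GC trend of each library as an offset in edgeR, where no read-through gene passed. The adjusted p was 9.45e-16 in DESeq2 and 0.0427 in edgeR with total count scaling.

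Its parents did not show a difference of that size. RPS10 had 1955, 1045 and 1225 counts in the control, siRNA 1 and siRNA 2 libraries, with a log2 fold change of -0.80 ± 0.20 (edgeR, adjusted p = 0.126). NUDT3 had 1397, 1890 and 2471 counts, with a log2 fold change of 0.63 ± 0.23 (edgeR, adjusted p = 0.172). The control was the highest of the 3 libraries for RPS10 and the lowest for NUDT3.

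Summed over RPS10, RPS10-NUDT3 and NUDT3, the locus held 3358, 3507 and 4184 counts. Its log2 fold change was 0.18 ± 0.20 (edgeR on the table with each locus summed, adjusted p = 0.566). The read-through gene took 0.179% of the locus counts in the control library (exact binomial 95% interval, 0.0656 to 0.388), 16.3% with siRNA 1 (15.1 to 17.6) and 11.7% with siRNA 2 (10.7 to 12.7). Such intervals describe counting error alone, because each rests on 1 library. They treat reads as independent, but the reads carry no molecular identifiers and 1 molecule can give several of them. The intervals may therefore be too narrow even for counting error. The 2 siRNA libraries lay far above the control and also apart from each other.

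Per length, in the deposited FPKM values, which are counts scaled for gene length and library size, RPS10-NUDT3 stood at levels of 0.0477, 4.18 and 3.62. RPS10 stood at FPKM levels of 51.0, 25.1 and 29.9, and NUDT3 at 8.02, 9.97 and 13.2. In each library RPS10 had the highest level of the 3 and the read-through gene the lowest. In 50 of 55 read-through genes checked, the FPKM length was the sum of distinct annotated exons, which counts overlapping exon variants more than once. The FPKM levels therefore depend on how many exon variants are annotated for each gene. Of its 5231 exonic bases RPS10-NUDT3 shares 929 with RPS10 and 4286 with NUDT3, and only 16 (0.306%) are in no other gene on the strand.

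**Figure D3:**
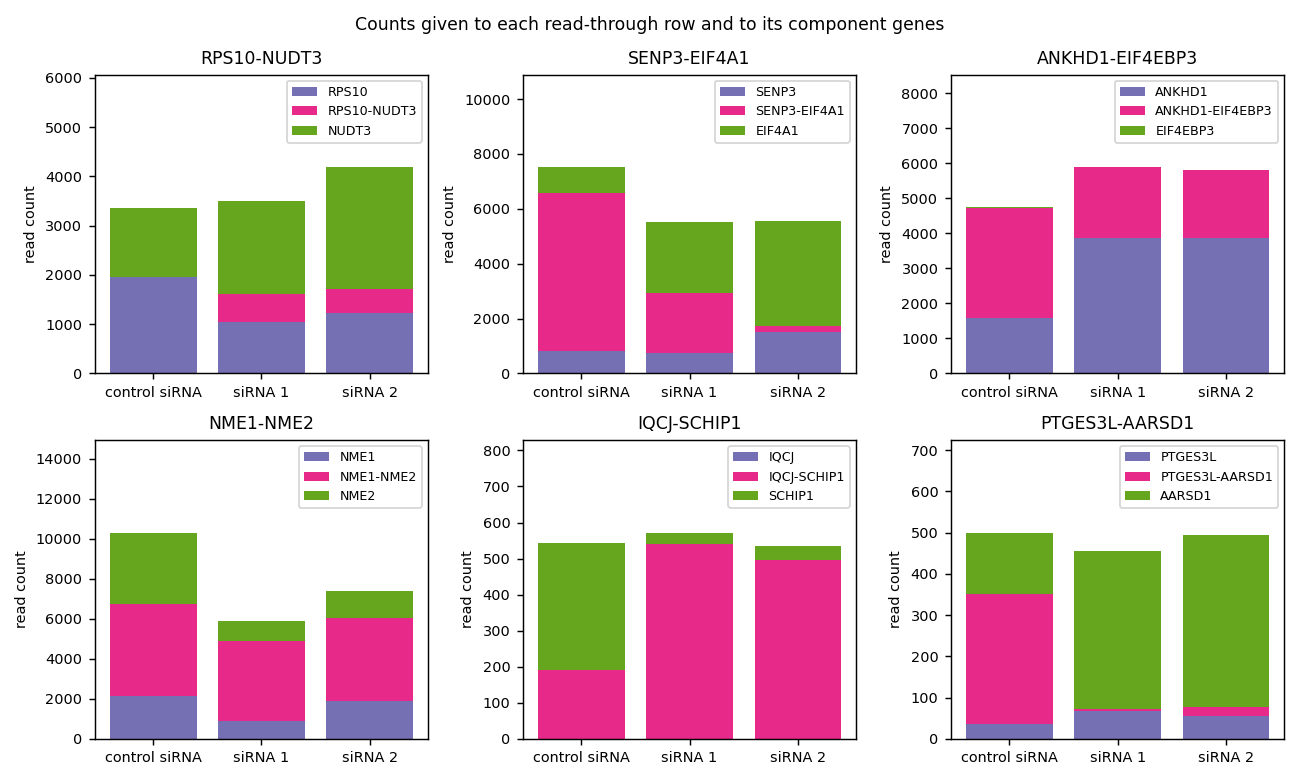
Stacked bars give the read counts (y axis, from 0) of gene A, the read-through gene and gene B at 6 loci in the control, siRNA 1 and siRNA 2 libraries, 1 library per bar and so without error bars. At IQCJ-SCHIP1 and PTGES3L-AARSD1 the bars are of like height in the 3 libraries while the read-through part runs from 35.4% to 94.6% and from 1.10% to 63.0% of them.

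A rule of size was used beside the test. A gene was counted when its level, as log2 CPM with a prior count of 2, was at least 2-fold higher, or at least 2-fold lower, with both siRNAs. The comparisons of siRNA 1 and of siRNA 2 share the 1 control library. By this rule 26 of the 82 read-through genes were counted (31.7%), against 9.05% of all genes tested. Of these, 8 were higher (4% of all genes tested were) and 18 lower (5.05%). The median log2 fold change over the read-through genes was -0.32 for siRNA 1 and 0.0037 for siRNA 2, against 0.02 and -0.0075 over all genes tested. Taken singly, siRNA 1 had 14 read-through genes at least 2-fold higher and 29 lower (20.4% of all genes tested, either way), and siRNA 2 had 16 higher and 22 lower (13.4%). Among genes other than read-through genes that share at least 50% of their exonic bases with another gene on the strand, the rule counted 112 of 528 (21.2%). The limit of 10 counts bears on these shares, because 7 read-through genes reached it in the control library alone and 9 in siRNA libraries alone. With a mean of at least 10 counts required instead, the rule counted 21, and 55 genes had 10 or more counts in every library.

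The share was also read against genes of like depth. Among those with a mean count of 10 to 100, 28.6% of 49 met the rule, against 14.5% of 4905 genes tested. With a mean of 100 to 1000 counts, 27.3% of 22 did, against 7.62% of 7268. By annotated product, the rule counted 6 higher and 7 lower among the 50 genes with a coding transcript, 1 higher and 7 lower among the 21 with a transcript marked for decay and no coding one, and 1 higher and 4 lower among the 10 with neither. After a trend on GC content was removed from the fold changes, 9 were higher and 10 lower.

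IQCJ-SCHIP1 was higher with both siRNAs and its downstream parent lower. It had no annotated direct splice from A to B, and its gap of 573553 bases is beyond the 500000 bases taken as the limit for neighbours. SCHIP1 encodes a protein that binds schwannomin, the product of the neurofibromatosis type II tumour suppressor gene, and the read-through RNA encodes a longer form that starts in IQCJ. IQCJ-SCHIP1 (chr3:158962235-159897366, plus strand) had 192, 541 and 495 counts, a ratio to the control of 2.85 for siRNA 1 and 2.51 for siRNA 2. Its log2 fold change was 1.42 ± 0.25 (edgeR, adjusted p = 0.112; DESeq2, adjusted p = 0.0211). SCHIP1 had 351, 31 and 41 counts, with a log2 fold change of -3.29 ± 0.31 (edgeR, adjusted p = 0.0580; DESeq2, adjusted p = 1.81e-05), and IQCJ had no count in any library. The 3 genes summed to 543, 572 and 536 counts, a log2 fold change of 0.02 ± 0.23 (edgeR, adjusted p = 0.963). The read-through gene took 35.4% of the locus in the control library (31.3 to 39.5), 94.6% with siRNA 1 (92.4 to 96.3) and 92.4% with siRNA 2 (89.8 to 94.5).

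TGIF2-RAB5IF joins the gene of a homeobox repressor, TGIF2, to RAB5IF. It had 12, 98 and 120 counts, with no overlap between the control and the siRNA libraries, and its ratio to the control was 8.27 for siRNA 1 and 9.74 for siRNA 2 (edgeR, adjusted p = 0.105). TGIF2 had 929, 1185 and 830 counts and RAB5IF 1719, 1497 and 1934, so that for each parent the control lay between the siRNA libraries. Of the 918 exonic bases of TGIF2-RAB5IF (chr20:36574553-36612384, plus strand), 1 is private. Its share of the locus was 0.451%, 3.53% and 4.16%.

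Of the other read-through genes higher with both siRNAs, BLOC1S1-RDH5 begins in a subunit of the BLOC-1 complex of lysosome-related organelles and ends in a retinol dehydrogenase. It had 66, 201 and 210 counts. BLOC1S1 had 554, 271 and 307, and RDH5 had 74, 32 and 37. The control library was thus the lowest for the read-through gene and the highest for both parents.

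ARMCX5-GPRASP2 runs from an armadillo repeat gene into that of a sorting protein for G protein-coupled receptors, and had 51, 167 and 150 counts. ARMCX5 had 376, 82 and 68 counts, highest in the control, and GPRASP2 had 12, 137 and 14, high with siRNA 1 only. ZHX1-C8orf76 had 35, 125 and 105 counts. Its upstream parent ZHX1, a zinc finger and homeobox gene, had 478, 800 and 626, and C8orf76 had 130, 60 and 98.

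FAM47E-STBD1 and EEF1E1-BLOC1S5 were higher in both siRNA libraries by less than 2-fold in at least one. FAM47E-STBD1, whose downstream gene encodes a glycogen-binding protein, was also selected through siRNA libraries alone. It had 8, 121 and 17 counts, so that siRNA 1 stood far above the other libraries. STBD1 had 189, 73 and 232 counts, lowest in that same library. EEF1E1-BLOC1S5 had 39, 71 and 63 counts, beside 554, 861 and 808 for EEF1E1, a component of the multi-tRNA synthetase complex, and 261, 340 and 303 for BLOC1S5, all 3 lowest in the control.

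The control library had no count of 5 read-through genes, and 2 of these, chosen for mention after their values were seen, were counted with both siRNAs. All 5 were thus selected through siRNA libraries alone. NDUFC2-KCTD14, which starts in a subunit of respiratory complex I, had 0, 30 and 30 counts. Taking 3 counts as the limit for the control library, it was at least 10.1-fold higher with siRNA 1 and at least 9.74-fold higher with siRNA 2. TSNAX-DISC1 had 0, 11 and 34 counts, at least 3.71-fold and at least 11.0-fold higher. NDUFC2 had 1605, 1514 and 1534 counts, close to level over the 3 libraries, whereas TSNAX, which encodes a partner of the RNA-binding protein translin, had 413, 868 and 1038. The other 3 had counts almost only with 1 siRNA: BUB1B-PAK6 had 0, 31 and 1, MSANTD3-TMEFF1 had 0, 37 and 0, and RPL17-C18orf32 is described further on.

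PTGES3L-AARSD1 was far lower with both siRNAs. Its upstream parent encodes a relative of the co-chaperone p23, and AARSD1 an editing enzyme that removes misattached amino acids from alanine tRNA. PTGES3L-AARSD1 (chr17:42950526-42980528, minus strand) had 315, 5 and 22 counts. The control was 62.2-fold higher than siRNA 1 and 14.7-fold higher than siRNA 2. The log2 fold change was -4.55 ± 0.64 (edgeR, adjusted p = 0.105; DESeq2, adjusted p = 5.81e-06).

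Both parents of PTGES3L-AARSD1 were lowest in the control library. PTGES3L had 36, 68 and 56 counts, and AARSD1 had 149, 383 and 417, a log2 fold change of 1.41 ± 0.26 (edgeR, adjusted p = 0.112; DESeq2, adjusted p = 0.0385). The locus held 500, 456 and 495 counts, a log2 fold change of -0.08 ± 0.23 (edgeR, adjusted p = 0.833). The read-through gene took 63.0% of them in the control library (58.6 to 67.2), 1.10% with siRNA 1 (0.357 to 2.54) and 4.44% with siRNA 2 (2.81 to 6.65).

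SENP3-EIF4A1 joins a SUMO-specific protease to a helicase of translation initiation, and its annotated transcript shown above is marked for nonsense-mediated decay. It had 5760, 2172 and 208 counts, so that the siRNA libraries differed from each other by more than siRNA 1 did from the control. The log2 fold change was -2.26 ± 1.09 (edgeR, adjusted p = 0.245). EIF4A1 had 923, 2599 and 3823 counts, a log2 fold change of 1.78 ± 0.29 (edgeR, adjusted p = 0.105; DESeq2, adjusted p = 2.07e-05). SENP3 had 830, 759 and 1507 counts. A further gene that overlaps the read-through gene, AC016876.2, had 251, 826 and 942. The sum over SENP3, SENP3-EIF4A1 and EIF4A1 was 7513, 5530 and 5538 counts (log2 fold change -0.45 ± 0.18, edgeR, adjusted p = 0.178), of which the read-through gene took 76.7%, 39.3% and 3.76%. The siRNA libraries were close in the sum and far apart in its division.

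TMEM256-PLSCR3, which ends in a mitochondrial phospholipid scramblase gene, had 74 counts in the control library and 1 in each siRNA library. The ratio of the control to siRNA 1 was 73.0 (95% counting interval, 12.7 to 2923) and to siRNA 2 76.0 (13.2 to 3041), and edgeR's adjusted p was 0.0580. TMEM256 had 180, 96 and 139 counts and PLSCR3 478, 401 and 380, each highest in the control but by far less.

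RTEL1-TNFRSF6B runs from a helicase that maintains telomeres into the gene of a decoy receptor for Fas ligand. It had 1109, 114 and 397 counts, and the control was 9.60-fold above siRNA 1 and 2.87-fold above siRNA 2. RTEL1 was nearly level at 488, 468 and 469 counts, and TNFRSF6B had 1, 37 and 1. The sum over the locus also lay lower with both siRNAs, at 1598, 619 and 867 counts (log2 difference -1.35 for siRNA 1 and -0.92 for siRNA 2, edgeR, adjusted p = 0.107).

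RAB4B-EGLN2 joins a small GTPase of endosomes to one of the prolyl hydroxylases that mark hypoxia-inducible factor, and had 162, 9 and 53 counts. RAB4B had 99, 70 and 57 counts and EGLN2 545, 724 and 529. JMJD7-PLA2G4B, which links a JmjC domain gene to a cytosolic phospholipase A2, had 168, 10 and 62 counts. JMJD7 had 23, 72 and 74 counts, lowest in the control, and PLA2G4B had 27, 30 and 7. In both read-through genes siRNA 1 was the lowest library and siRNA 2 lay between it and the control.

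SPECC1L-ADORA2A, which ends in an adenosine receptor gene, had 70, 11 and 20 counts, while SPECC1L, a cytoskeletal gene, had 1598, 1502 and 1126 and ADORA2A no more than 3 in any library. PKD1P6-NPIPP1, a pair of pseudogenes with near-identical copies on chromosome 16, had 126, 25 and 41 counts. PKD1P6 had 160, 76 and 55 counts and NPIPP1 82, 95 and 102. Read-through gene and upstream parent were highest in the control at this locus, and the downstream one was not.

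The other read-through genes lower with both siRNAs by the rule of size had at most 174 counts in any library. They were CORO7-PAM16, CRYZL2P-SEC16B, DNAAF4-CCPG1, MIA-RAB4B, NEDD8-MDP1, PPAN-P2RY11, PPT2-EGFL8, RNF103-CHMP3, SLX1A-SULT1A3 and ZNF511-PRAP1. DNAAF4-CCPG1 and MIA-RAB4B each had 19 counts in the control library and 0 in both siRNA libraries, at least 6.25-fold lower with siRNA 1 and at least 6.50-fold lower with siRNA 2. ZNF511-PRAP1 had 20, 0 and 0 counts. These were among the genes that reached 10 counts in the control library alone.

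The most abundant read-through genes had no common pattern. NME1-NME2 joins the genes of a pair of nucleoside diphosphate kinases and has no private exonic base (chr17:51153590-51171744, plus strand). It had 4586, 4009 and 4165 counts, nearly level over the libraries, with a log2 fold change of -0.18 ± 0.18 (edgeR, adjusted p = 0.546). NME2 had 3584, 997 and 1356 counts, a log2 fold change of -1.62 ± 0.23 (edgeR, adjusted p = 0.105; DESeq2, adjusted p = 9.04e-05), and NME1 had 2131, 896 and 1879. The share of the locus given to the read-through gene was 44.5%, 67.9% and 56.3%, lowest in the control, with its parents lower in the siRNA libraries.

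ANKHD1-EIF4EBP3, which joins an ankyrin repeat and KH domain gene to that of a binding protein of the cap-binding factor eIF4E, had 3140, 2026 and 1947 counts. ANKHD1 had 1597, 3859 and 3861, a log2 fold change of 1.26 ± 0.20 (edgeR, adjusted p = 0.105; DESeq2, adjusted p = 0.000867), and EIF4EBP3 had 7, 1 and 2. The siRNA libraries lay close together at the read-through gene and ANKHD1. The share of the read-through gene was 66.2% in the control library (64.8 to 67.5), 34.4% with siRNA 1 (33.2 to 35.7) and 33.5% with siRNA 2 (32.3 to 34.7).

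The siRNA libraries disagreed at TMEM189-UBE2V1 and P2RX5-TAX1BP3. TMEM189-UBE2V1 joins the gene of the desaturase that makes plasmalogens to that of a ubiquitin-conjugating enzyme variant, and had 708, 176 and 1368 counts. The control lay between the siRNA libraries, which were 7.47-fold apart (95% counting interval, 6.38 to 8.79). TMEM189 had 465, 64 and 346 counts and UBE2V1 4359, 6094 and 4678, and the locus 5532, 6334 and 6392.

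P2RX5-TAX1BP3, which starts in an ATP-gated ion channel gene, had 639, 71 and 334 counts. P2RX5 had 270, 304 and 257, and TAX1BP3, which encodes a PDZ domain protein, had 905, 852 and 633. Neither parent was as low with siRNA 1 as the read-through gene was.

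RBM14-RBM4 and PDXDC2P-NPIPB14P varied least of the abundant genes besides NME1-NME2. RBM14-RBM4, from neighbouring genes of RNA-binding proteins that act in splicing, had 545, 592 and 733 counts. RBM14 had 2429, 681 and 1198 counts and RBM4 895, 1361 and 1123. PDXDC2P-NPIPB14P, built from pseudogenes, had 264, 268 and 236 counts. SAA2-SAA4 (180, 175 and 222), RNASEK-C17orf49 (238, 246 and 262) and SMURF2P1-LRRC37BP1 (211, 272 and 226), chosen after their values were seen, also varied little.

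The libraries of siRNA 1 and siRNA 2 target the same gene with different sequences. The distance between them, which holds any difference between those reagents, is the only measure of spread in the series. The absolute log2 difference between them had a median of 0.66 over the 82 read-through genes, 0.34 over the 146 component genes tested and 0.24 over all genes tested. At least 2-fold apart were 35 read-through genes (42.7%) and 21 component genes (14.4%), against 6.56% of all genes tested. Among the 528 other genes that share at least 50% of their exonic bases, the median was 0.53 and 28.8% were 2-fold apart. Among the 23 read-through genes without a private base the median was 1.07 and 12 were 2-fold apart, and among the 58 with some private sequence it was 0.60 and 22 were. The rule of size did not go the same way: it counted 6 of those 23 and 20 of those 58. Among genes with a mean of 10 to 100 counts, 44.9% of 49 read-through genes lay 2-fold apart, against 9.75% of 4905 genes tested. With a mean of 100 to 1000 counts, 45.5% of 22 read-through genes did, against 4.68% of 7268 genes tested.

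Several read-through genes, chosen for mention after their values were seen, had counts in one siRNA library and almost none in the other. RPL17-C18orf32, which begins in a gene of the large ribosomal subunit, had 0, 0 and 200 counts, at least 64.1-fold higher with siRNA 2 than with siRNA 1. RPL17 had 709, 696 and 523 counts and C18orf32 111, 170 and 76, both lowest with siRNA 2. The locus held 820, 866 and 799 counts, level within a narrow range. DNAJC25-GNG10, which ends in a G protein gamma subunit gene, had 133, 156 and 1 counts, and MINOS1-NBL1 had 101, 84 and 3.

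HSPE1-MOB4 starts in the gene of the mitochondrial co-chaperonin and had 66, 69 and 384 counts, 5.35-fold higher with siRNA 2 than with siRNA 1. MOB4 had 309, 1828 and 263 counts, 7.23-fold higher with siRNA 1. BCL2L2-PABPN1, from an inhibitor of apoptosis into the nuclear poly(A)-binding protein, had 46, 220 and 47 counts. HNRNPUL2-BSCL2 had 100, 31 and 217. The highest library was siRNA 2 for HSPE1-MOB4 and HNRNPUL2-BSCL2 and siRNA 1 for BCL2L2-PABPN1.

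**Figure D4:**
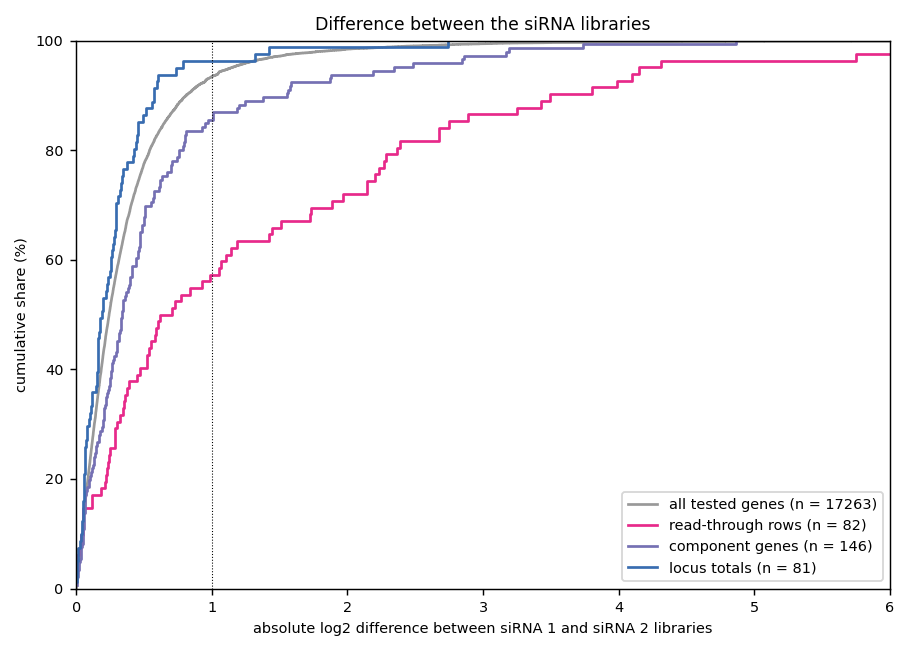
Curves give the cumulative share (%, y axis) of genes whose siRNA 1 and siRNA 2 libraries differ by up to the absolute log2 value on the x axis, drawn up to 6, for all genes tested, read-through genes, component genes and locus totals. At the dotted line, which marks 2-fold, the read-through genes lie lowest, with 42.7% past it, and the locus totals highest, with 3.70% past it.

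The sum A + A-B + B does not change when a read is moved from one of the 3 genes to another. It would still change if reads that fit several genes were dropped, counted more than once or given to a further gene, which cannot be told from the sources used here. The 82 genes gave 81 loci, since MIA-RAB4B and RAB4B-EGLN2 share a component. The median absolute log2 difference between the siRNA libraries was 0.19 over the 81 loci. At least 2-fold apart were 3 loci (3.70%, against 6.30% of all entries of the table with loci summed), namely C8orf44-SGK3, PALM2-AKAP2 and RBAK-RBAKDN. The widest was RBAK-RBAKDN, 2.74 apart on the log2 scale, where RBAK itself had 167, 1306 and 185 counts.

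By edgeR 0 loci passed at an adjusted p under 0.05, against 0.0935% of all entries. At an unadjusted p under 0.05 there were 22 (27.2%), against 26.8% of all entries. DESeq2 called 1, RTEL1-TNFRSF6B, against 4.07% of the entries for which it gave an adjusted p. The rule of size counted 1 locus, SLX1A-SULT1A3 with 177, 78 and 66 counts, against 8.85% of all entries. With siRNA 1 alone 12 loci were at least 2-fold from the control (20.2% of all entries were), and with siRNA 2 alone 2 (13.1%). SLX1A-SULT1A3 lies in a segment with a near-identical copy, so its counts are uncertain.

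Loci have more counts than the read-through genes in them, so they were also set beside genes of like depth. With a mean of 100 to 1000 counts, the median absolute log2 difference between siRNA libraries was 0.25 over 45 loci and 0.23 over 7268 genes tested. In that class 6.67% of the loci and 4.68% of the genes were at least 2-fold apart. With a mean of 1000 to 20000 counts the median was 0.17 over 31 loci and 0.17 over 4211 genes, and 0 loci and 2.21% of the genes were 2-fold apart.

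Of the 26 read-through genes counted by the rule of size, the locus was within 1.5-fold of the control with both siRNAs in 13, and more than 2-fold off in the same direction with both in 1. The share of all entries within 1.5-fold was not taken, so the 13 have nothing to be read against. In 11 of the 26 the sum of the component genes lay on the opposite side of the control from the read-through gene with both siRNAs. They were ARMCX5-GPRASP2, BLOC1S1-RDH5, CRYZL2P-SEC16B, DNAAF4-CCPG1, IQCJ-SCHIP1, JMJD7-PLA2G4B, NDUFC2-KCTD14, NEDD8-MDP1, PTGES3L-AARSD1, RNF103-CHMP3 and SENP3-EIF4A1. Only the side was compared, with no minimum size, and no like share was taken over other genes. The log2 difference of the component sum from the control was 0.0068 at NEDD8-MDP1 with siRNA 2, and -3.40 at IQCJ-SCHIP1 with siRNA 1. The median share of a locus given to its read-through gene was 11.0%, 7.72% and 12.0%. Of the component genes, 23 of the 146 tested met the rule of size (15.8%, against 9.05% of all genes tested), with 9 higher and 14 lower. By edgeR 0 of them passed, against 0.0579% of all genes tested, and 40 (27.4%) had an unadjusted p under 0.05, against 26%.

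**Figure D5:**
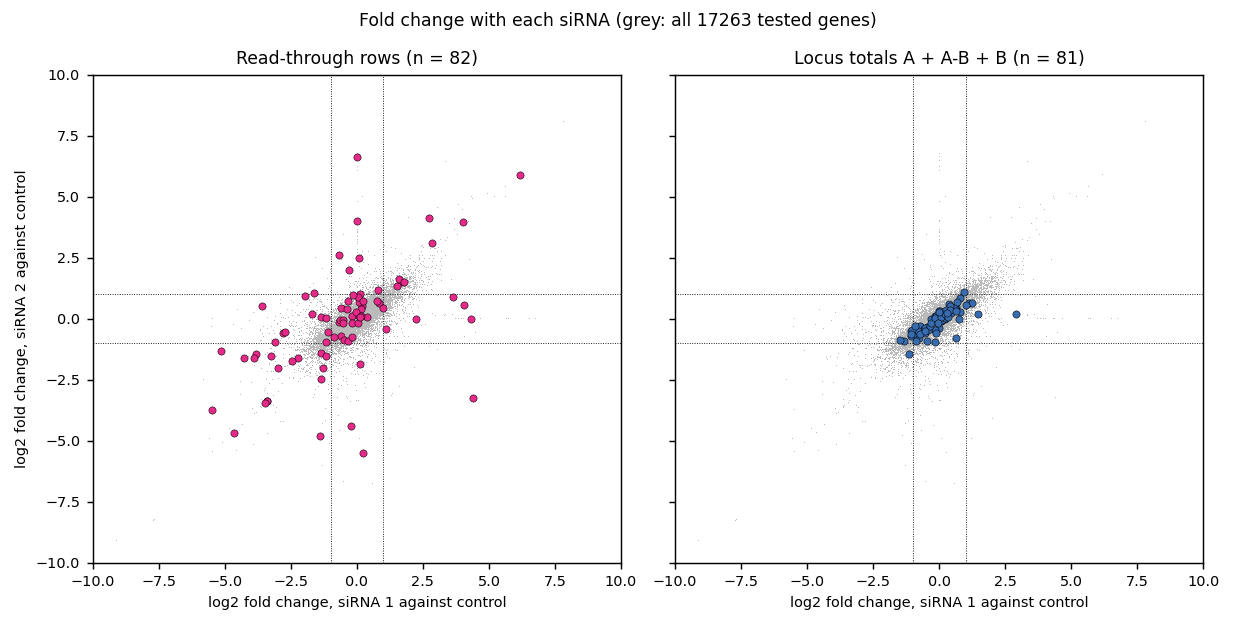
Points give the log2 fold change against the control with siRNA 1 (x axis) and siRNA 2 (y axis) for the 82 read-through genes (left) and the 81 locus totals (right), over all 17263 genes tested in grey, with dotted lines at 2-fold. Both axes use the same control library, so that its errors move points along the diagonal. The read-through genes spread over the whole panel, with RPS10-NUDT3 at 6.19 and 5.90, and the locus totals gather near the centre.

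Cleavage at the polyadenylation site, release of the polymerase behind it, protection of upstream sites by the U1 particle and decay of faulty RNAs are the steps known to limit read-through RNA. Genes of these 4 groups were examined in the same fit, and edgeR called 0 genes in any of them (0.0579% of all genes tested were called) and DESeq2 1, RPRD1B (4.32%). At an unadjusted p under 0.05, the share over all genes tested was 26%. For 19 factors of 3' end cleavage and polyadenylation the median log2 fold change was 0.28 for siRNA 1 and 0.23 for siRNA 2, and 6 had an unadjusted p under 0.05. CPSF1, the largest subunit of the cleavage and polyadenylation complex, had 1628, 707 and 939 counts (edgeR, adjusted p = 0.123). CPSF6, of the cleavage factor that influences the choice of site, had 1369, 2328 and 2898 (edgeR, adjusted p = 0.123). These genes lay on opposite sides of the control.

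For 15 termination factors the medians were 0.11 and 0.12, with 1 at an unadjusted p under 0.05. That list's widest difference was at RPRD1B, which binds the tail of RNA polymerase II, with 867, 2844 and 2693 counts (edgeR, adjusted p = 0.0942; DESeq2, adjusted p = 6.18e-06). CDC73, of the PAF1 elongation complex, had 906, 1237 and 1197 counts. The siRNA libraries lay close together at both genes.

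For 10 proteins of the U1 particle the medians were -0.16 and -0.16, with 3 at an unadjusted p under 0.05, and 5 were higher and 5 lower with both siRNAs. SNRPA had 758, 324 and 567 counts and SNRNP70, which like SNRPA binds U1 RNA, 3450, 2137 and 2395. SNRPF, a ring protein named after its values were seen, had 1580, 2511 and 2285. For 15 factors of nonsense-mediated decay the medians were 0.09 and 0.14, again with 3. Of these factors 8 were higher and 5 lower with both siRNAs. MAGOHB had 304, 488 and 614 counts and RBM8A, its partner in the exon junction complex, 1241, 2803 and 1443. UPF1, the central helicase of the pathway, named here after its values were seen, had 2961, 1883 and 2238. Over all genes tested the medians were 0.02 and -0.0075.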

How the data were processed

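RNA from HCT116 cells was sequenced after a control siRNA (1 library) or one of 2 siRNAs against DUOX2 (1 library each, taken as replicates of 1 group). The deposited table gives, per gene, raw read counts and the authors' FPKM. The submitters' processing notes name Bowtie 0.12.2, mm8 and GRCh38, with no role for either build; the sources used here do not give the counting program, whether it used strand, or how reads fitting several genes were treated. Bowtie of this kind aligns reads without splitting them across introns. Among 55 read-through genes with 50 or more counts, the length implied by the authors' FPKM equalled the sum of the distinct annotated exons within 1 base in 50.

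Counts were fitted on the whole table with edgeR 4.0.16 in R 4.3.3 (TMM, filterByExpr with a minimum count of 10, quasi-likelihood test, 1 residual and 4.66 prior degrees of freedom, Benjamini-Hochberg over 17263 genes, threshold 0.05), with DESeq2 1.42.0 as an alternative. For each siRNA alone, the control's log2 CPM (prior count 2) was subtracted from that library's. Locus totals replaced the A, A-B and B genes in a second fit (17116 entries). Exons and junctions came from GENCODE 29. The script was tested on simulated data. Other alternatives were total count scaling, no filter, a prior count of 0.5, GC correction, a mean count of 10 and leaving out each siRNA library. Named with values were RPS10-NUDT3, genes past the test, the 10 with the highest mean CPM, and, among those with 50 or more counts in a library, the 8 largest differences in each direction shared by both siRNAs. The read-through genes, lists and rules were chosen with earlier results of these data known. The siRNA libraries were 2-fold or more apart at 6.56% of genes and were counted separately. Of the read-through genes, 1 is not reported by name here.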

Additional observations from a re-analysis of the deposited data

How the results depend on the processing

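The 1 read-through gene past edgeR's test became 3 with DESeq2, 0 without a filter on low counts and 0 with a GC offset, and stayed 1 with total count scaling or a mean count of 10. The 26 read-through genes 2-fold from the control with both siRNAs became 28 with total count scaling, 28 with a prior count of 0.5, 21 with a mean count of 10 and 19 after removal of a GC trend, where the 18 lower became 10. With 1 siRNA library left out, an alternative chosen after seeing the data, between 38 and 43 were 2-fold from the control with the other. The 0 loci past the test became 1 with DESeq2, and the 1 locus past 2-fold became 2 to 12 with 1 siRNA library left out, siRNA 2 in the case of 12. Summing all overlapping genes of the strand, also chosen after seeing the data, left both locus counts as they were. The 0 machinery genes past the test became 1 with DESeq2. The cause was not tested in any case.

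The share of RPS10-NUDT3 at its locus, 0.179%, 16.3% and 11.7% in the control, siRNA 1 and siRNA 2 libraries, was 0.428%, 23.2% and 16.5% over NUDT3 alone, 35.4% and 28.5% over RPS10 alone in the siRNA libraries, and 10.7% and 7.75% there by FPKM. The log2 fold change of P2RX5, 0.05, was -0.056 with total count scaling. Of the 289 values for single genes under these alternatives, 17 moved by more than the spread between siRNA libraries, 9 passed the threshold and 1 lost it. The sign differed in 11, at 10 genes, of which 10 were values with 1 siRNA library left out, and 0 were of a gene past the test. With 1 siRNA library left out no residual degree of freedom remains, so no test was run. No paired analysis was possible because the groups share fewer than 2 replicate numbers.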
